A study of Schizosaccharomyces pombe with 4 samples.

Results

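In fission yeast (Schizosaccharomyces pombe), 756 annotated noncoding RNAs lie mostly opposite a protein-coding gene. Of the 671 tested, 154 (23.0%) increased in cells that lack the debranching enzyme Dbr1, against 6.69% of all transcripts tested. Among the noncoding RNAs with a smaller overlap or with none, the share was 15.2% and 18.0%. A noncoding RNA (identifier SPNCRNA) was taken as antisense when at least 50% of its width, by start and end, lay over 1 protein-coding transcript on the opposite strand. This held for 756 of the 1553 annotated noncoding RNAs, among 12383 tabulated transcripts and introns. The 756 RNAs lay over 706 coding genes, named here their sense genes. Of these, 661 genes had 1 antisense RNA, 41 had 2, 3 had 3, and eta2 (SPAC31G5.10) had 4, and 1 antisense RNA also met the rule over a second gene. Of the other noncoding RNAs, 211 had a smaller overlap and 586 had none.

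RNA was sequenced from proliferating cells of 2 strains, with 2 libraries each, and counted by transcript and library. The wild type was ED668, of mating type h+ with the alleles ade6-M216, ura4-D18 and leu1-32, and the mutant was dbr1Δ from the Bioneer deletion collection with the same mating type and alleles. Both were grown in YES, a rich medium, at 32 °C. The mutant is a single deletion strain that grows slowly, so an effect of the deletion and of slow growth cannot be told apart. Reads of dbr1 itself were 1535 and 1799 in the wild-type libraries and 207 and 164 in the dbr1Δ libraries, a log2 fold change of -2.77 ± 0.12 (SE, edgeR adjusted p = 3.8e-07). Total counts were 25169220 and 36062720 in wild type and 24205354 and 19780858 in dbr1Δ.

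Antisense RNAs are transcribed from the strand opposite a gene, often from a start near the end of the gene or by reading on from a neighbour. In yeasts many are short-lived, because the nuclear exosome, the RNA interference machinery and chromatin factors keep them low. In fission yeast, antisense transcription is best known over genes of meiosis and of the stress and nutrient responses, which are quiet in cells that divide in rich medium. Dbr1 opens the branched loop (lariat) in which an excised intron is released.

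The antisense RNAs had a median width of 1301 bases, from 76 to 5113, and a median of 90.6% of the width lay over the sense gene. In 244 the overlap was complete. They covered a median of 62.9% of the sense gene, its start in 255 cases, its end in 156, the whole gene in 103, and only an inner stretch in 242. Introns of the sense gene lay under 258 of them. On their own strand, 207 shared bases with another annotated transcript (109 with a coding one), and the reads of such RNAs may belong in part to the neighbour.

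The overlap is shown for 4 pairs whose antisense RNA was called in dbr1Δ, of which rec7 itself did not pass the test. Each pair is written 5′ to 3′ on both strands over 60 bases of the RefSeq genome (ASM294v3, whose chromosome lengths equal those used by the authors), first as the antisense RNA and then as the gene. Capitals mark the stop codon of gnr1 (III:766142-766201), the start codon of the phosphoketolase gene SPBC24C6.09c (II:2337709-2337768), and the first 6 bases of an intron of rec7 (III:1548713-1548772) and of cyp1 (I:1368699-1368758), each with its reverse complement in the antisense RNA. They are shown as examples of where these RNAs cross the end, the start and the splice sites of a gene, and whether that place bears on the change was not tested.
SPNCRNA.1158: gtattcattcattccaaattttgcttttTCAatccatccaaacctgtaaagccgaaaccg
gnr1: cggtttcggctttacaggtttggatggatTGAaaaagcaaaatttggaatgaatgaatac
SPNCRNA.1505: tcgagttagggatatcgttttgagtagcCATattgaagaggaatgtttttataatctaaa
SPBC24C6.09c: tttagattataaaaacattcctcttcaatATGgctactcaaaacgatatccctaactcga
SPNCRNA.131: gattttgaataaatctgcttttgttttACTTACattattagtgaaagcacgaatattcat
rec7: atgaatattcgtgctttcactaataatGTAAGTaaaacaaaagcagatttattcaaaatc
SPNCRNA.739: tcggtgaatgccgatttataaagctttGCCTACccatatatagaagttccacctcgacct
cyp1: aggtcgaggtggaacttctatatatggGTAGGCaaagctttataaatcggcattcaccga

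The antisense RNAs were far less abundant than the genes they lay over. Levels are CPM, the counts scaled to library size, per kb of transcript. The median level was 1.85 in wild type and 2.47 in dbr1Δ, against 24.3 and 19.6 for the sense genes. Taken pair by pair, the antisense level had a median of 8.64% and 8.35% of the sense level in the wild-type libraries and of 13.2% and 14.2% in the dbr1Δ libraries, so the libraries of the 2 strains did not overlap. With 2 libraries a strain, the smallest two-sided p of an exact permutation test is 0.3333. The antisense RNA was above its sense gene in 110 pairs in wild type (14.6%) and in 129 in dbr1Δ (17.1%), of which 96 were the same. At the other end, 149 antisense RNAs stood under 1% of the sense level in wild type and 92 in dbr1Δ.

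**Figure D1:**
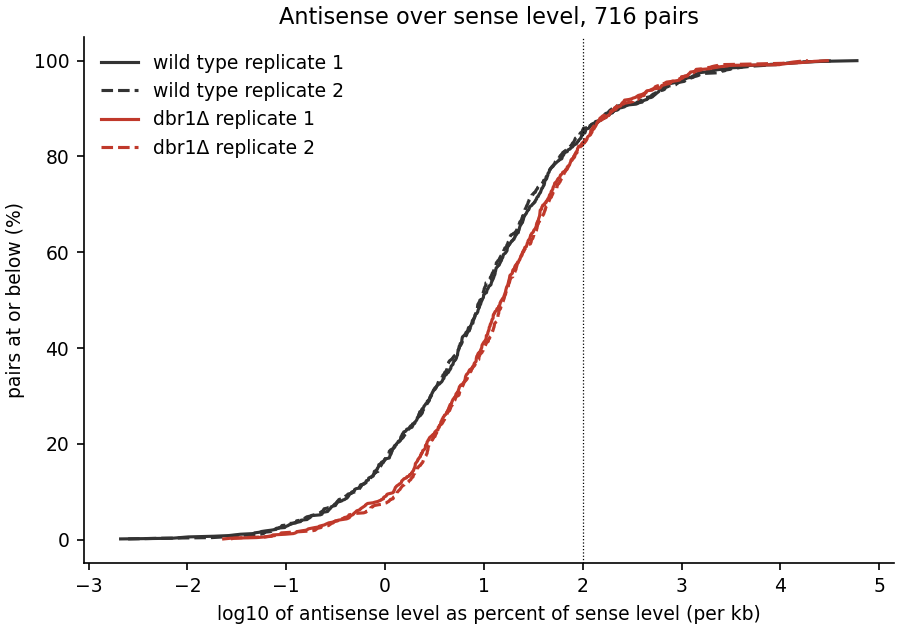
Cumulative share of pairs (y axis, %) by the antisense level as a percent of the sense level per kb (x axis, log10) in each of the 4 libraries, for the 716 pairs with counts for both partners in every library. The dotted line marks equal levels, and both dbr1Δ curves lie to the right of both wild-type curves up to about that line.

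The counts kept the strands apart. For the 20 completely overlapped antisense RNAs under the most abundant sense genes (at least 91.7 CPM per kb), the antisense level was a median of 0.236% of the sense level in wild type, from 0 to 2.65%. The same median was 0.528% in dbr1Δ. How much of such low levels was sense RNA read on the wrong strand was not tested. In sum, the antisense RNAs took 1.36% and 1.28% of the transcript counts in the wild-type libraries and 1.26% and 1.23% in dbr1Δ (exact permutation p = 0.3333, two-sided, the smallest possible). Of those reads, the 5 RNAs with the most reads per kb in wild type, some of which share bases, held 50.6% and 49.4% in wild type and 35.4% and 33.5% in dbr1Δ. Among the 5, SPNCRNA.254 and SPNCRNA.1032 hold nearly the same reads (51014 and 51013 in wild-type replicate 1). Such reads are counted for each RNA here and in the sums above, so the shares of the 5 are overstated.

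Of the 756 antisense RNAs, 671 reached 10 counts in 2 libraries or more and were tested, and no count of the other 85 was above 15. An RNA was called increased or decreased at an adjusted p under 0.05 and a change over 2-fold. Among those tested, 154 increased (23.0%) and 18 decreased (2.68%), against 6.69% and 2.81% of all 6401 transcripts tested. All 154 had both dbr1Δ libraries above both wild-type libraries, and all 18 had both below. With 2 libraries a strain the call itself largely implies this, so it is no further support. An RNA near 0 in wild type reached the count minimum only through dbr1Δ. With a mean of at least 50 counts, which tests fewer loci, 102 increased and 9 decreased. Without the fold cutoff, 260 (38.7%) were higher and 79 (11.8%) lower, where 17.8% of all transcripts were higher and 42.6% lower. The antisense RNAs sharing no bases with another transcript on their strand had 107 increased (22.3%) and 12 decreased (2.50%) among 480, and 189 higher (39.4%) and 42 lower (8.75%).

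Noncoding RNAs with a smaller overlap had 29 increased (15.2%) and 5 decreased (2.62%) among 191, and those with none had 70 (18.0%) and 16 (4.12%) among 388. Without the fold cutoff, 29.8% of the former were higher and 17.8% lower, and 29.1% of the latter were higher and 16.5% lower. The median log2 fold change was 0.37 over the antisense RNAs, 0.14 over those with a smaller overlap, 0.21 over those with none and -0.18 over all transcripts. With scaling factors taken from transcripts alone, which place the median of all transcripts at -0.01, these medians were 0.54, 0.31 and 0.39 and the number of decreased antisense RNAs was 10. These differences between classes were not tested.

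**Figure D2:**
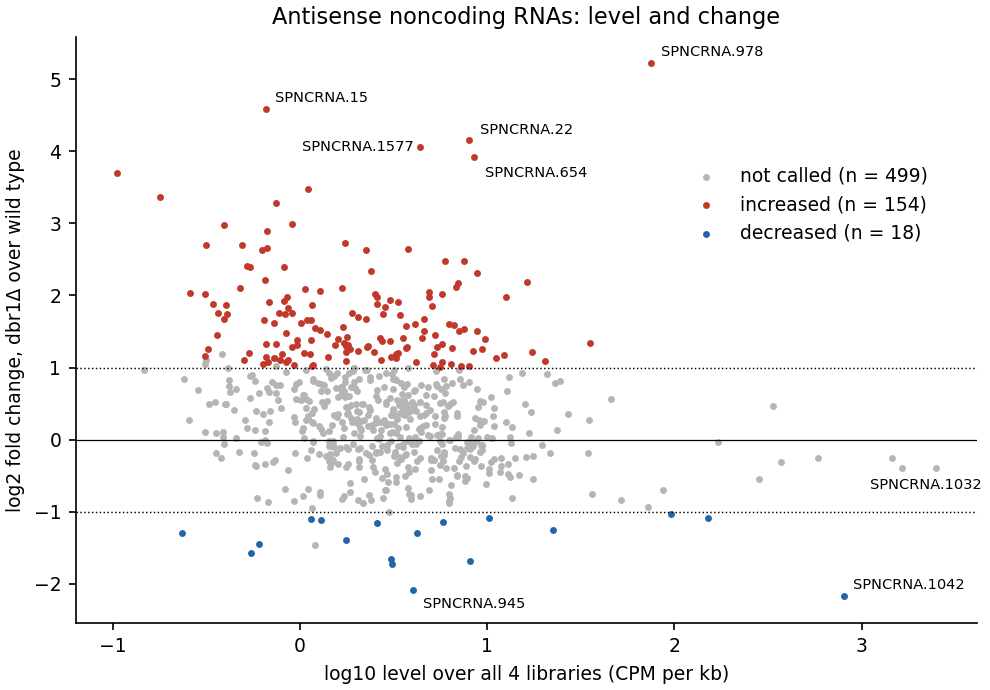
Log2 fold change of each of the 671 tested antisense RNAs (y axis, dbr1Δ over wild type) by its mean level over the 4 libraries (x axis, log10 CPM per kb). Dotted lines mark 2-fold. The 154 increased RNAs (red) span most of the range of levels, whereas the 5 most abundant RNAs lie below 0 and SPNCRNA.1042 is the most abundant of the 18 decreased (blue).

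SPNCRNA.978 had the largest increase. Its counts were 63 and 76 in wild type and 1995 and 1849 in dbr1Δ, a log2 fold change of 5.22 ± 0.13 (adjusted p = 1.19e-08). It is 589 bases long (I:4326026-4326614) and lies wholly inside SPAC27F1.10, a gene for an uncharacterized protein with only 20, 11, 17 and 22 counts (log2 fold change 0.73 ± 0.50, adjusted p = 0.239). The antisense RNA had a mean of 2.35 ± 0.281 CPM in wild type and 86.6 ± 10.1 in dbr1Δ (SD, n = 2).

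The next increases lay over genes of several processes. SPNCRNA.22 (named prl22), over the end of the transporter gene SPCC613.02, had 8 and 13 counts in the wild-type libraries and 168 and 115 in dbr1Δ (4.15 ± 0.25 on the log2 scale). SPNCRNA.1577, inside taf51, which encodes a subunit of the general transcription factor TFIID, had 21 and 20 against 263 and 247 (4.05 ± 0.23). SPNCRNA.654, over the end of tim15, for a subunit of the TIM23 complex that imports proteins into mitochondria, had 15 and 19 against 201 and 183 (3.92 ± 0.22). In each of the 3 the strains were apart by several fold in every library, at adjusted p of at most 2.76e-06. Of their sense genes, taf51 was lower by less than 2-fold (-0.57 ± 0.07, adjusted p = 0.000224), while tim15 (-0.41 ± 0.17, adjusted p = 0.0692) and SPCC613.02 (-0.11 ± 0.07, adjusted p = 0.21) did not pass.

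Others among the 10 largest increases came from RNAs with few reads in wild type. SPNCRNA.1328, over the end of the autophagy gene atg38, had 9 and 4 counts in the wild-type libraries and 68 and 44 in dbr1Δ (3.48 ± 0.43). SPNCRNA.1470, over the start of ser2, for the phosphatase that makes serine, had 3 and 10 against 34 and 43 (2.99 ± 0.46). SPNCRNA.1272, inside the uncharacterized gene SPCC1919.04, had 3 and 1 against 15 and 16 (3.29 ± 0.64). All 3 were near the lower limit of detection in wild type, so the size of the change is known less well than its direction.

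SPNCRNA.15 (prl15), inside crt10, had 1 count in each wild-type library and 25 and 16 in dbr1Δ, a ratio of 27.5 with a 95% counting interval of 7.14 to 235. SPNCRNA.576, over the whole of qrs1, for glutaminyl-tRNA ligase, had 2 and 0 counts against 10 and 12, a ratio of 14.8 (3.63 to 129). These intervals cover counting error only. SPNCRNA.1223, over the uncharacterized gene SPCC191.10, had 1 and 2 against 13 and 12, a ratio of 11.2 (3.41 to 57.9). Of the 10 largest increases it was the one whose sense gene also increased, from 1 and 0 counts to 19 and 15. That gene too reached the minimum of 10 counts in dbr1Δ alone and could enter the test only as higher there. SPNCRNA.15, SPNCRNA.576, SPNCRNA.1223, SPNCRNA.1272 and SPNCRNA.1328 reached the minimum of 10 counts in the dbr1Δ libraries alone. They could therefore enter the test only as RNAs higher in dbr1Δ, and their rank is in part set by that filter. The genes ser2, qrs1 and crt10 were lower by less than 2-fold (log2 -0.74, -0.61 and -0.61, adjusted p of 0.000188, 0.000287 and 0.00346), and atg38 (-0.10 ± 0.08) and SPCC1919.04 (-0.14 ± 0.12) did not pass.

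SPNCRNA.1042 had the largest decrease and is also among the most abundant antisense RNAs. It had 59625 and 74871 counts in the wild-type libraries and 12288 and 10159 in dbr1Δ (-2.17 ± 0.09, adjusted p = 2.7e-07). It lies over the end of pxr1 (I:5009787-5011504), a gene for a ribosome biogenesis protein of the PINX1 family, and it stood at 2497% of that gene per kb in wild type. Reads of pxr1 also decreased, from 1999 and 2524 to 537 and 626 (-1.52 ± 0.16, adjusted p = 9.64e-05).

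SPNCRNA.945, inside the uncharacterized gene SPAC1071.13, decreased from 197 and 289 counts to 36 and 48 (-2.09 ± 0.23, adjusted p = 0.000132). SPNCRNA.1057, over the start of etr1, for an enzyme of fatty acid synthesis, decreased from 99 and 172 to 37 and 25 (-1.69 ± 0.22). SPNCRNA.1244, over the start of SPCC74.04, for a transporter of gamma-aminobutyric acid or polyamines, decreased from 148 and 135 to 31 and 37 (-1.66 ± 0.30). Their sense genes went different ways, since etr1 was higher (0.82 ± 0.08, adjusted p = 5.69e-05), SPCC74.04 lower (-0.61 ± 0.11, adjusted p = 0.00198) and SPAC1071.13 did not pass (-0.19 ± 0.09, adjusted p = 0.117).

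SPNCRNA.131 (tos2) lies inside rec7, a gene needed for meiotic recombination, across its introns, one of which is printed above. It decreased from 82 and 115 counts to 35 and 25 (-1.29 ± 0.21, adjusted p = 0.00113). SPNCRNA.69 (tos1) and SPNCRNA.132, also over rec7, were lower by less than 2-fold (-0.76 ± 0.13 and -0.75 ± 0.17), and all 549 bases of tos2 are shared with tos1. Per kb, these RNAs exceeded rec7 in both strains, and rec7 had 39, 58, 34 and 20 counts (-0.42 ± 0.27, adjusted p = 0.199).

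The remaining large decreases were weaker. SPNCRNA.466, over SPCC1672.14, had 30 and 40 counts against 9 and 10 (-1.45 ± 0.35, adjusted p = 0.00753), but shares 1081 bases with SPCC1672.01 on its own strand, which was lower too (-0.81 ± 0.07). SPNCRNA.1452, inside the meiotic gene mug124, had 30 and 64 against 10 and 16 (-1.39 ± 0.40, adjusted p = 0.0167). SPNCRNA.711, over the start of the recombination gene rad52, had 17 and 16 against 6 and 4 (-1.30 ± 0.49, adjusted p = 0.04997). SPNCRNA.711 was not called with DESeq2 (-1.37, adjusted p = 0.203), and its adjusted p was 0.0597 with library totals alone, 0.0839 and 0.0981 with factors from transcripts or coding transcripts and 0.0599 with no filter on low counts. Without dbr1Δ replicate 1 none of the 3 passed, with log2 fold changes of -1.15, -0.87 and -1.38. Without wild-type replicate 2, SPNCRNA.1452 did not pass (-1.03), and without dbr1Δ replicate 2, SPNCRNA.711 did not (-1.17).

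The antisense RNAs with the most reads per kb in wild type changed little apart from SPNCRNA.1042. SPNCRNA.254 and SPNCRNA.1032 lie over the start of the P-type ATPase gene SPAC4F10.16c and share 704 bases and nearly all reads. SPNCRNA.1032 had 51013 and 68318 counts in the wild-type libraries and 40105 and 28630 in dbr1Δ (-0.39 ± 0.08, adjusted p = 0.00418). SPNCRNA.514 and SPNCRNA.1490 overlap each other over the start of rrb1, for a WD repeat protein that in budding yeast assists ribosome assembly. SPNCRNA.1490 had 4417 and 6505 counts in the wild-type libraries and 3055 and 3579 in dbr1Δ, with no change past the test (-0.26 ± 0.16, adjusted p = 0.193).

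Among the 696 sense genes tested, 37 increased (5.32%) and 29 decreased (4.17%, dbr1 included), against 2.76% and 2.28% of all 5000 coding transcripts tested. The balance of directions depended on the scaling, with 43 increased and 13 decreased with factors from transcripts alone and 48 and 11 with factors from coding transcripts, and without the fold cutoff 103 were higher and 352 lower. Coding transcripts that are no sense gene had 2.35% and 1.97%. Sense genes made up 13.9% of the coding transcripts tested, 26.8% of the 138 increased and 25.4% of the 114 decreased. They were also less abundant, with a median wild-type level of 24.3 CPM per kb against 33.6 for the other coding transcripts, and the part of that difference in the calls was not tested. The median log2 fold change was -0.26 over sense genes and -0.24 over the coding transcripts as a whole.

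Across the 664 pairs with both partners tested, the log2 fold changes had a weak negative correlation (Pearson's r = -0.147, Spearman's rho = -0.206), given as a description because all pairs share the same 4 libraries. It was steepest by rank where the RNA covered the whole gene (rho = -0.489, r = -0.212, 96 pairs) and near 0 where it covered the start (rho = -0.0686, 227 pairs). Sense genes had a median of -0.41 under the 152 increased antisense RNAs with a tested gene, -0.22 under the 494 not called and -0.19 under the 18 decreased. Seen from the gene, the antisense RNAs had a median of -0.26 over increased genes (41 pairs), 0.42 over genes not called (593 pairs) and 0.56 over decreased genes (30 pairs).

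Of the 152 increased antisense RNAs with a tested gene, 97 (63.8%) had a gene that was lower and 9 (5.92%) one that was higher at an adjusted p under 0.05. Among the 494 not called, 231 genes (46.8%) were lower and 86 (17.4%) higher. Of all coding transcripts 50.1% were lower, and 651 of 5000 were higher. Both partners also differed by the level of the sense gene. In the tertile with the least abundant sense genes the genes had a median of -0.03 and the RNAs of 0.08. In the tertile with the most abundant ones these medians were -0.35 and 0.69. The part of that level in these shares and in the correlation was not tested. Changes past 2-fold on both sides were few. An increased RNA lay over a decreased gene in 8 pairs and over an increased gene in 4, and a decreased RNA lay over an increased gene in 2 and over a decreased gene in 3. The other 140 increased antisense RNAs with a tested gene had a gene that was not called.

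**Figure D3:**
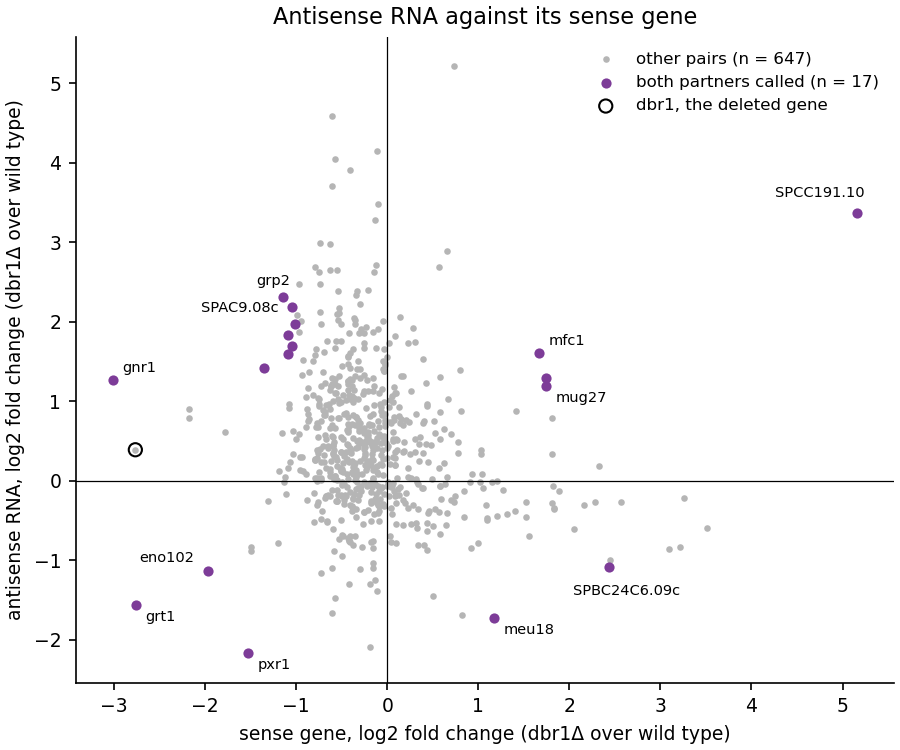
Log2 fold change (dbr1Δ over wild type) of each antisense RNA (y axis) against that of its sense gene (x axis) for 664 pairs. The 17 pairs with both partners called are purple and 11 are labelled by the sense gene, and the circle marks dbr1. In 356 pairs (53.6%) the antisense RNA lies above 0 and the gene below 0, and most of the genes that increased have an antisense RNA near or below 0. With medians of 0.37 over the RNAs and -0.26 over the genes, many pairs would lie there without any relation between partners. That share was not worked out. With scaling from transcripts alone the medians were 0.54 and -0.09, so the side of 0 depends on the scaling.

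The pair SPNCRNA.1158 and gnr1 had the largest decrease of a sense gene under an increased RNA. The RNA runs over 96.3% of gnr1 (III:765556-767481), across the stop codon shown above, and gnr1 encodes the beta subunit of a heterotrimeric G protein. SPNCRNA.1158 had 183 and 259 counts in the wild-type libraries and 476 and 324 in dbr1Δ (1.27 ± 0.13, adjusted p = 8.04e-05). Reads of gnr1 decreased from 284 and 394 to 41 and 22 (-3.01 ± 0.20, adjusted p = 5.38e-06). Per kb, the antisense RNA stood at 54.3% of gnr1 in wild type and at 1074% in dbr1Δ. It shares 67 bases with SPNCRNA.1157 on its own strand, which did not pass (0.09 ± 0.18).

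SPNCRNA.1523 lies over the start of grp2, a gene for a Golgi protein with a GRIP domain. It increased from 78 and 135 counts to 457 and 327 (2.31 ± 0.15, adjusted p = 5.36e-06), while grp2 decreased from 1799 and 2609 to 804 and 679 (-1.14 ± 0.07). It shares 62 bases with ish1 on its own strand, which increased as well (1.47 ± 0.14, adjusted p = 4.42e-05), and a part of reads from ish1 in the RNA was not tested. SPNCRNA.742, over the whole of the steroid reductase gene SPAC9.08c, increased from 256 and 348 to 1117 and 938 (2.19 ± 0.10, adjusted p = 3.44e-07). That gene decreased from 544 and 846 to 305 and 197 (-1.05 ± 0.13), so that the RNA passed from 38.7% to 366% of it per kb. Its own-strand neighbour met26, with which it shares 67 bases, had 54715 and 79678 counts against 55391 and 46371 (0.03 ± 0.08).

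SPNCRNA.678 covers all of kri1, whose homologue in budding yeast acts in ribosome biogenesis. It increased from 136 and 152 counts to 388 and 274 (1.60 ± 0.16), and kri1 decreased from 5312 and 7363 to 2432 and 2001 (-1.09 ± 0.07, adjusted p = 4.3e-06). SPNCRNA.886, over the end of noc12, increased from 74 and 101 to 190 and 158 (1.41 ± 0.16), and noc12 decreased from 1131 and 1826 to 506 and 352 (-1.35 ± 0.10). Both RNAs stayed well under their genes, at 12.1% and 31.9% per kb in dbr1Δ.

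SPNCRNA.739 lies inside cyp1, a gene for a cyclophilin, a prolyl isomerase that helps proteins fold, and runs across 3 of its 5 introns. It increased from 19 and 22 counts to 60 and 50 (1.84 ± 0.26), while cyp1 decreased from 678 and 1020 to 360 and 236 (-1.09 ± 0.12). The other 2 pairs of this kind were SPNCRNA.1573 over zng1 (1.70 and -1.04) and SPNCRNA.643 inside trm112 (1.97 and -1.01). With scaling factors from transcripts alone, the decreases of grp2, kri1, cyp1, SPAC9.08c, zng1 and trm112 were under 2-fold, at -0.97 to -0.84, and 3 pairs of this kind were found in all. With a minimum mean of 50 counts kri1, cyp1 and SPAC9.08c were under it too (-0.98 to -0.93), as was SPAC9.08c with library totals alone (-0.99). Without dbr1Δ replicate 2, cyp1 (-0.94) and SPAC9.08c (-0.89) were under 2-fold, and so was SPAC9.08c without wild-type replicate 2 (-0.97).

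**Figure D4:**
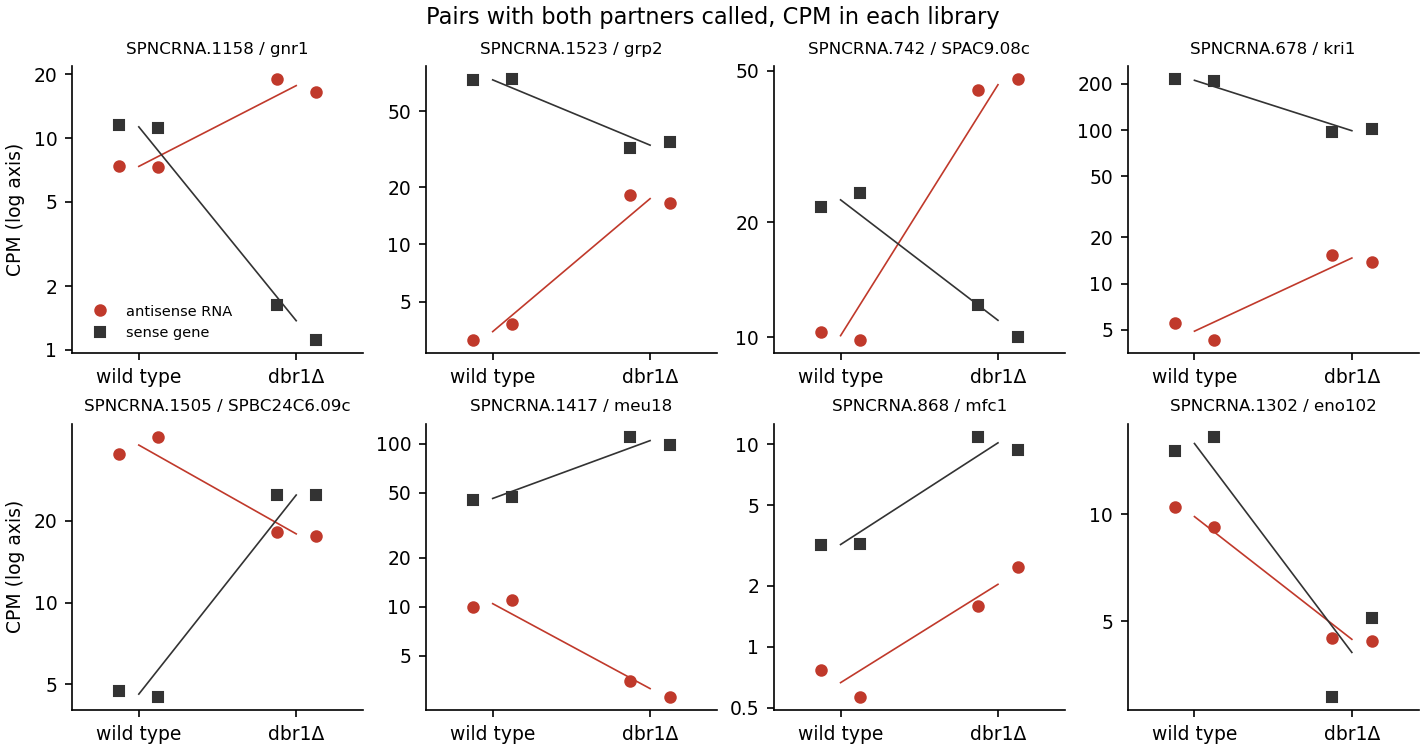
CPM (log axis) in each library for 8 pairs with both partners called, with lines between the strain means (n = 2). In the top row (gnr1, grp2, SPAC9.08c, kri1) the antisense RNA is higher and the gene lower in both dbr1Δ libraries. In the bottom row the gene is higher for SPBC24C6.09c, meu18 and mfc1, and both partners are lower for eno102.

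The opposite exchange was seen at SPBC24C6.09c, for a phosphoketolase, an enzyme that splits sugar phosphates. SPNCRNA.1505 covers the whole gene (II:2335158-2337882), its start codon included. It decreased from 871 and 1447 counts to 458 and 347 (-1.09 ± 0.10, adjusted p = 5.48e-05), while the gene increased from 117 and 159 to 624 and 492 (2.44 ± 0.12, adjusted p = 7.64e-07). Per kb the RNA passed from 791% of the gene to 69.0%. At meu18, a gene known to rise in meiosis, SPNCRNA.1417 decreased from 246 and 387 to 88 and 55 (-1.72 ± 0.17), and meu18 increased from 1116 and 1665 to 2772 and 1933 (1.18 ± 0.08). The decrease of SPNCRNA.1505 was under 2-fold with scaling from transcripts alone (-0.91), with a minimum mean of 50 counts (-0.97) and without wild-type replicate 2 (-0.96).

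Changes in the same directions, neither of them called, were found at fbp1, for the gluconeogenic enzyme fructose-1,6-bisphosphatase, which glucose represses. SPNCRNA.1324 covers all of fbp1 and is one of the RNAs closest to the limit of the rule, with 50.04% of its width over the gene. It had 533 and 663 counts in the wild-type libraries and 259 and 258 in dbr1Δ (-0.79 ± 0.15, adjusted p = 0.00202), against 180 and 209 and then 329 and 257 for fbp1 (1.0 ± 0.15, adjusted p = 0.00063). The change of fbp1 lay at the 2-fold limit and passed it under 7 alternatives, at 1.03 to 1.23, among them library totals alone (1.05) and factors from transcripts (1.17). Also just inside, SPNCRNA.605 over hhy1 (50% of its width) had 884 and 1629 counts against 1596 and 1026 and a log2 fold change of 0.50. Just outside, SPNCRNA.1104 over bcd1 had -0.11 and SPNCRNA.969 over SPAC683.02c had 0.57, both with 49.6% of the width over the gene.

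Further genes with large increases, picked out by their values, had antisense RNAs that were lower by no more than 2-fold. They encode proteins of nutrient uptake and of metabolism. The ammonium transporter gene amt3 increased from 55 and 80 counts to 274 and 271 (2.45 ± 0.18), and SPNCRNA.859 inside it had 185 and 244 against 91 and 70 (-1.0 ± 0.16, adjusted p = 0.000905). The aminotransferase gene SPAC27F1.05c increased from 231 and 401 to 1873 and 2034 (3.09 ± 0.17), and SPNCRNA.977 inside it had 451 and 563 against 214 and 204 (-0.86 ± 0.14, adjusted p = 0.00116). In ssd2, for succinate-semialdehyde dehydrogenase, the gene increased from 113 and 209 to 1150 and 1033 (3.21 ± 0.14), and SPNCRNA.706 over its end had 287 and 450 against 144 and 159 (-0.83 ± 0.18, adjusted p = 0.0043). In all 3 the antisense RNA exceeded the gene per kb in wild type (426%, 174% and 209%) and was at 38.7%, 11.2% and 12.7% of it in dbr1Δ.

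The urea transporter gene SPBC23G7.13c increased from 10 and 11 counts to 87 and 65 (3.25 ± 0.28), but SPNCRNA.1488 over it did not pass (-0.21 ± 0.15, adjusted p = 0.266). Among decreased genes, guf1, for a GTPase, fell from 673 and 925 counts to 146 and 118 (-2.18 ± 0.12). Its antisense RNAs SPNCRNA.1037 and SPNCRNA.564, which overlap each other, were higher by less than 2-fold (0.91 ± 0.09 and 0.79 ± 0.09, adjusted p of at most 0.000152).

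Some pairs moved together. SPNCRNA.868 lies inside mfc1, for a copper transporter of the forespore membrane. It increased from 19 and 20 counts to 40 and 49 (1.61 ± 0.34), as did mfc1, from 79 and 114 to 275 and 186 (1.67 ± 0.16). Over mug27, for a kinase of meiosis and spore formation, the overlapping RNAs SPNCRNA.583 and SPNCRNA.1217 increased by 1.19 ± 0.16 and 1.29 ± 0.15 on the log2 scale. SPNCRNA.1217 had 163 and 306 counts in the wild-type libraries and 468 and 373 in dbr1Δ, and mug27 had 10 and 8 against 26 and 20 (1.75 ± 0.40, adjusted p = 0.00584). They share 2126 bases, so these 2 pairs are close to a single observation, and without wild-type replicate 1 SPNCRNA.583 was at 1.0 and was not called.

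Near the left end of chromosome II, both partners decreased in 2 pairs. SPNCRNA.1301 (II:50110-52193), over the start of grt1, for a transcription factor, decreased from 45 and 58 counts to 17 and 9 (-1.57 ± 0.31), and grt1 decreased from 447 and 582 to 67 and 47 (-2.76 ± 0.15). SPNCRNA.1302 (II:58453-59684), inside eno102, which encodes an enolase, decreased from 259 and 327 to 113 and 87 (-1.14 ± 0.15), and eno102 decreased from 373 and 585 to 77 and 101 (-1.97 ± 0.22). With scaling from transcripts alone SPNCRNA.1302 was at -0.97. The third pair of this kind was SPNCRNA.1042 with pxr1.

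The gene dbr1 has an antisense RNA of its own. SPNCRNA.759 covers 40.8% of dbr1, including its start and 2 of its 4 introns, and had 10 and 20 counts in the wild-type libraries and 13 and 16 in dbr1Δ (0.39 ± 0.41, adjusted p = 0.437). Since dbr1 is the gene deleted in the mutant, part of the sequence under SPNCRNA.759 may be missing there. How much of it remains was not tested, so these counts do not show the RNA of an intact locus as unchanged. SPNCRNA.556, which starts 3769 bases from dbr1 and was chosen for that place, increased from 4 and 5 counts to 20 and 23 (2.65 ± 0.46, adjusted p = 0.00147). It reached the minimum of 10 counts in the dbr1Δ libraries alone, so it could enter the test only as an RNA higher in dbr1Δ.

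By place over the gene, the share increased was 30.0% of the 100 tested RNAs that covered a whole gene, 25.8% of 198 inside, 22.2% of 144 over the end and 17.9% of 229 over the start. Those with introns of the gene under them had 25.1% increased and 0.823% decreased (2 of 243), and those without had 21.7% and 3.74% (16 of 428). On chromosomes I, II and III the share was 22.9%, 22.0% and 24.8%. With a coding gene upstream on the same strand within 500 bases 23.8% increased, and with one farther away 22.0%. These shares were not tested against each other.

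The share increased also differed by the level of the sense gene. In the tertile with the least abundant sense genes, 35 of 225 (15.6%) increased and 12 (5.33%) decreased. In the middle tertile 43 of 222 (19.4%) increased, and in the tertile with the most abundant sense genes 76 of 224 (33.9%) increased and 3 (1.34%) decreased. The median log2 fold changes were 0.08, 0.33 and 0.69. The antisense RNAs' own median level in wild type was 3.69, 2.28 and 1.33 CPM per kb in the same order. By the antisense RNAs' own level, 32.1% increased in the lowest tertile, 17% in the middle and 19.6% in the highest. An RNA near 0 in wild type passed the count minimum only through dbr1Δ, so no order is read from these shares. The part of this minimum in the shares by the level of the sense gene was not tested. The ratio of antisense to sense reads under the most abundant genes rose as well, as given above for the 20 completely overlapped RNAs (0.236% to 0.528%), and the part of wrong-strand reads in these shares was not tested.

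**Figure D5:**
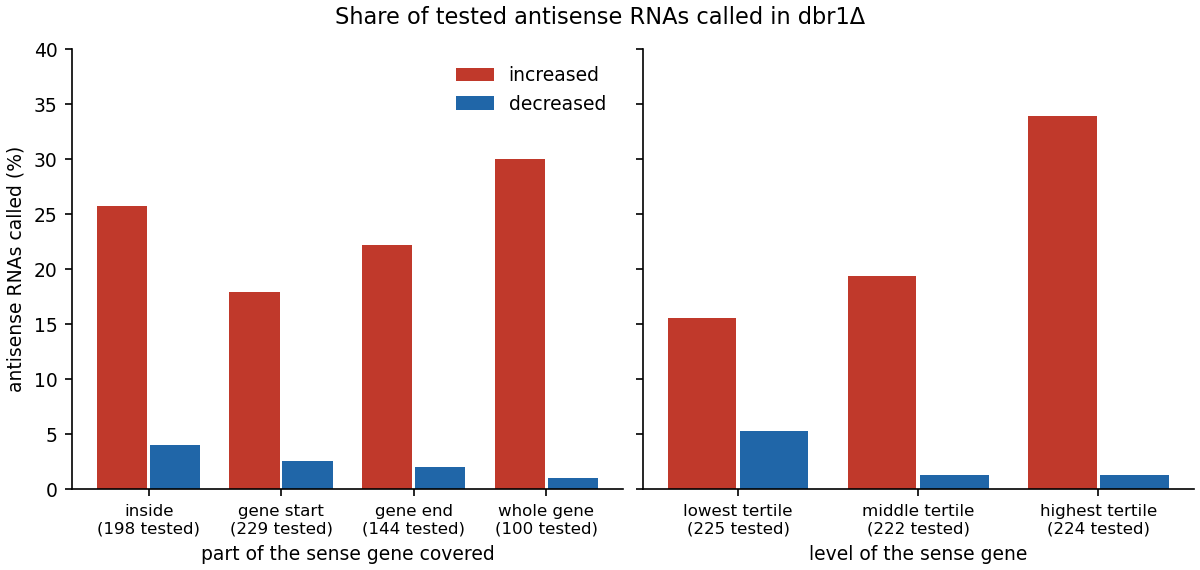
Share of tested antisense RNAs (y axis, %) that increased (red) or decreased (blue) in dbr1Δ, by the part of the sense gene they cover (left) and by the level of the sense gene over all 4 libraries, in tertiles (right). The number tested stands under each pair of bars. The increased share is 33.9% over the most abundant sense genes and 15.6% over the least abundant, and the antisense RNAs' own level differs between these tertiles as well.

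Genes of meiosis and sporulation (mug, meu, rec and like symbols) often had an antisense RNA more abundant than the gene. In 24 of 46 such pairs (52.2%) the antisense RNA exceeded its gene per kb in wild type, against 14.6% of all pairs and 0 to 20% in the 7 other groups of genes examined. In dbr1Δ, 8 of the 38 tested genes of the group increased and none decreased, with a median of 0.34, where 5.32% of all sense genes increased and their median was -0.26. Of 41 tested antisense RNAs 4 increased (9.76%) and 3 decreased (7.32%), with a median of 0.09, against 23.0%, 2.68% and 0.37 for all antisense RNAs. No test of the group was made, and the genes named next were picked out afterwards by their values. The sporulation gene meu14 increased from 52 and 87 counts to 209 and 156 (1.82 ± 0.17), and SPNCRNA.1663 over it had 404 and 544 against 381 and 296 (-0.07 ± 0.11, adjusted p = 0.613). The gene mug147 increased from 188 and 320 to 1114 and 778 (2.33 ± 0.12), and SPNCRNA.1668 over its end had 77 and 114 against 86 and 75 (0.18 ± 0.18, adjusted p = 0.405). Thus in these 2 pairs the gene increased with no change past the test in its antisense RNA. The same held for the increased genes mug182, meu26 and mug126. At mug95 the antisense RNA SPNCRNA.1045 was lower (-0.69 ± 0.16, adjusted p = 0.00572), at meu18 it decreased and at mug27 both antisense RNAs increased.

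The counts over other groups of genes stand against 23.0% increased and 2.68% decreased among all antisense RNAs, and none of them was tested. Of those over genes of chromatin and histones 7 of 21 increased (33.3%) and none decreased, and none of the 21 genes was called. Over kinases and phosphatases 9 of 42 increased (21.4%), over the ubiquitin system 3 of 14 (21.4%), over transporters 6 of 39 (15.4%), over mitochondrial proteins 2 of 7 (28.6%) and over ribosomal proteins 2 of 6 (33.3%). Over transcription factors 3 of 15 increased (20%), at rad15, ssl1 and ams2, and 3 decreased (20%), at grt1, klf1 and mbx2, genes named here after their values were seen apart from grt1. The transporter genes themselves had 3 increased and 3 decreased among 41.

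Genes whose products are known to limit antisense RNA in yeasts were also read from the table. Of 51 such genes none increased and 1 decreased, where 2.76% and 2.28% of all coding transcripts did. At an adjusted p under 0.05, 36 were lower, as were 50.1% of all coding transcripts. The median log2 fold change was -0.33 over the 51 genes, against -0.24 for all coding transcripts. These counts hold for scaling over all loci, introns included. With scaling from transcripts alone the median of all coding transcripts was -0.07, so the number called lower depends on the scaling. Among the nuclear exosome and its cofactors 16 of 18 were lower (median -0.42), among them the catalytic subunits rrp6 (-0.80 ± 0.07) and dis3 (-0.69 ± 0.08), and rrp41 decreased (-1.24 ± 0.08, adjusted p = 6.58e-06). Of the genes of RNA interference and heterochromatin 3 of 9 were lower and 1 higher, of the chromatin factors 10 of 16 were lower, and of the other RNA decay factors 7 of 8. The part of these factors in the antisense levels was not tested.

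Short motifs were counted at the RNAs found in the RefSeq genome, as a description with no test. The sequence TGACGT, the core bound by stress-response factors of the ATF/CREB family, lay on either strand within the 250 bases before and 50 after the start in 8.61% of 151 increased antisense RNAs, in 12.5% of 16 decreased, in 7.32% of 478 not called, in 7.73% of all 724 and in 5.96% of coding transcripts. The sequence TNAAAC, which the meiotic RNA-removal factor Mmi1 recognises, was sought on the own strand in the first 300 bases. It lay in 57.0% of 151 increased RNAs, in 25% of 16 decreased (4 RNAs) and in 45.5% of 473 not called. The share was 47.8% of all 711 antisense RNAs, 48.3% of all noncoding RNAs and 42.9% of coding transcripts. Median GC content of those bases was 34.7%, 36.0% and 35% in the increased, decreased and uncalled RNAs. SPNCRNA.1272 was picked out of the 10 largest increases for its number of copies in these 300 bases, which was 2, and stands as an example only. The first copy is in capitals in the first 60 bases of the RNA (III:2211564-2211623, minus strand).
SPNCRNA.1272: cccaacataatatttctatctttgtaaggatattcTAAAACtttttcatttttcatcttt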

How the data were processed

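Strand-specific libraries were made from 4 µg of total RNA after rRNA depletion, with fragments of about 200 nt and 15 PCR cycles, and sequenced as 49-base reads. The authors aligned the reads with Bowtie (Ensembl build EF1) and removed reads that matched several loci. Values used are the read counts per transcript or intron and library, deposited by the authors without normalization. For introns, the deposited reads across the upstream exon-intron boundary were added to these counts. The sums entered the library totals, the scaling factors and the fit. The authors also deposited log2(RPKM) expression and splicing efficiency, of which only expression was read, to check transcript lengths. Their fold changes and adjusted p-values were not used. Whether counting used strand is not stated in the sources used here, and antisense to sense ratios were the check of it.

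The 12383 loci entered 1 fit in R 4.3.3 with the quasi-likelihood test of edgeR 4.0.16 (TMM factors from all loci, a minimum of 10 counts in 2 libraries), with Benjamini-Hochberg adjustment over 9518 tested loci. Log2 fold changes are given with SE. The 2 libraries of a strain came from separate cultures. In simulated data on 9505 loci for this comparison, 96% of loci changed 3-fold and 100% of those changed 4-fold were called, and 0.0215% of unchanged ones. The simulation gave all loci the same spread beyond counting error and drew the changed loci from all tested transcripts. These rates therefore do not carry over to antisense RNAs with few reads or a wider spread. Alternatives were DESeq2 1.42.0, other scalings, filters, cutoffs, overlaps and left-out libraries.

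Named are the 10 largest increases and decreases, the 5 most abundant RNAs, pairs with both partners called, dbr1 and RNAs at the overlap limit. Others are named as chosen after seeing values. The members and lists were chosen with earlier results of these data known. RefSeq annotation matched 724 of 756 antisense RNAs and 699 of 706 sense genes by identifier.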

Additional observations from a re-analysis of the deposited data

How the results depend on the processing

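Scaling from transcripts alone gave 190 increased and 10 decreased antisense RNAs, a median of 0.54 and 13 decreased sense genes, with 3 pairs of increased RNA and decreased gene and 1 of the reverse. Scaling from coding transcripts gave 206 and 10, a median of 0.60 and 11 decreased sense genes, with 4 such pairs and 8 with both increased. A mean of at least 50 counts, which tests fewer loci, left 102 and 9 antisense RNAs, 16 decreased sense genes, and pair counts of 4 (increased over decreased), 0 (both increased) and 1 (decreased over increased). Without a fold cutoff there were 260 and 79 antisense RNAs, 103 and 352 sense genes, and 146, 18, 23 and 26 pairs. At an overlap of at least 80%, 21 sense genes increased, with 2 pairs both increased, 1 decreased over increased and 1 both decreased. With single-member sense genes, 2 pairs had both increased. Without shared own-strand bases, chosen after seeing the data, 5 pairs were increased over decreased and 2 both increased. DESeq2 called 135 and 16, of which 135 and 15 were shared with edgeR.

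The difference in summed share between strains was -0.0800 percentage points, -0.162 by library totals, 0.102 at 80% overlap and -0.00785 with single members. It keeps no direction and could not pass at this number of libraries.

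Without each library in turn, increased antisense RNAs numbered 127 to 149 and decreased ones 15 to 18, with medians of 0.34 to 0.41, and increased over decreased pairs 8 to 11. The replicate numbers do not pair the cultures (correlation of same-numbered deviations -0.0228 over 9518 loci), and the fit with a replicate block called 154 and 19, of which 151 and 18 were shared.

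Signs turned only for values that had not been called: with 1 library left out, SPNCRNA.514 (-0.58 to 0.08), SPNCRNA.1490 (-0.54 to 0.05), SPBC660.08 (atg38, -0.13 to 0.01) and SPBC19C2.06c (mug124, -0.27 to 0.12), and with scaling from transcripts, from coding transcripts and the 50-count minimum, SPCC613.02 (0.06, 0.12, 0.00), SPBC660.08 (0.07, 0.13, 0.01) and SPBC19C2.06c (0.06, 0.12, 0.00). SPCC1919.04 was 0.03 and 0.09 under the 2 scalings, and SPAC1071.13 and SPAC30D11.10 (rad52) were both 0.04 with scaling from coding transcripts. Depth limits the RNAs with few reads, since the median antisense RNA had 63 to 85 counts a library and 85 were not tested.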
